A study of Homo sapiens with 24 samples.

Results

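A group of 10 genes of the NF-kappaB system was followed in HMLE, a line of immortalized epithelial cells from the human breast, after it had been given RBMS3 or LacZ. They were 3 inhibitors (NFKBIA, NFKBIE and TNFAIP3), the 5 genes that encode the NF-kappaB subunits (RELA, REL, RELB, NFKB1 and NFKB2), and 2 target genes (BIRC3 and ICAM1). The members are given by symbol and are 10 of the 38849 genes in the deposited table. All 10 were among the 12096 genes that entered the tests, which needed a mean of at least 10 over all libraries. RBMS3 is an RNA-binding protein, and per the labels its line is an over-expression model; LacZ, a bacterial enzyme gene, marks the control line. Both lines received actinomycin D, a blocker of transcription, at 10 µg/mL, and were sampled at 0, 90, 180 and 360 min. The study asked which transcripts depend on RBMS3 for their stability. Each of the 8 groups of line and time has 3 libraries, prepared by the QuantSeq method, in which reads come from the 3′ ends of mRNA. The labels used here name neither the promoter that drives RBMS3 or LacZ nor whether a line is a clone, and they leave unsaid if replicate libraries stem from separate cultures. The spread behind the p-values below is thus one between libraries and may be technical.

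NF-kappaB factors are dimers that inhibitor proteins hold in the cytoplasm until a stimulus such as tumour necrosis factor or interleukin 1 leads to the inhibitor's destruction. The freed dimers then switch on genes that include their own inhibitors, so the response ends itself through feedback. In the canonical arm RELA or REL pairs with the p50 product of NFKB1, and in the non-canonical arm RELB pairs with the p52 product of NFKB2.

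Because several of these genes are known targets of the factors they control, the promoters of the members were searched for the letters GGGNNNTTCC, a common form of the kappaB motif (N is any base), on either strand. RefSeq promoters (GRCh38.p14, 250 bases before to 50 after a gene's start) were at hand for 8 of the 10 members, not for NFKBIE or RELB. The letters were found in the promoters of 6 of these 8 genes, NFKBIA, TNFAIP3, NFKB1, NFKB2, REL and BIRC3, and not in those of RELA or ICAM1. Among all 35116 promoters listed by RefSeq, 6.52% held them, and of the 27305 genes 7.83% did. By promoter, 7 of the 12 listed for the members held them. They are shown with 10 bases on either side, with the motif in capitals and the printed strand behind the coordinates. The windows of TNFAIP3 overlap each other, as do the first 2 of NFKB2, and in REL the same letters also match on the opposite strand, 1 base on. A match is a description of the sequence and not evidence of a bound site.
NFKBIA, chr14:35404811-35404840 (+), motif 81 to 72 bases before the start: gtcaggctcgGGGAATTTCCaagccagtca
TNFAIP3, chr6:137867182-137867211 (−), motif 67 to 58 bases before the start: ggatttccacGGGACTTTCCaaagtcacgt
TNFAIP3, chr6:137867194-137867223 (−), motif 55 to 46 bases before the start: ttgtaggcccGGGGATTTCCacgggacttt
NFKB1, chr4:102501300-102501329 (+), motif 49 to 40 bases before the start: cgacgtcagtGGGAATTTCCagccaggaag
NFKB2, chr10:102394462-102394491 (−), motif 106 to 97 bases before the start: cccccggaggGGGGAATTCCcatgacgttt
NFKB2, chr10:102394490-102394519 (+), motif 78 to 69 bases before the start: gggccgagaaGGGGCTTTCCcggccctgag
NFKB2, chr10:102395674-102395703 (+), motif 21 to 12 bases before the start: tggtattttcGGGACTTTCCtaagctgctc
REL, chr2:60881517-60881546 (+), motif 47 to 38 bases before the start: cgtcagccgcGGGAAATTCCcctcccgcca
BIRC3, chr11:102317275-102317304 (−), motif 199 to 190 bases before the start: aaacccactcGGGGATTTCCatgacccaaa

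Libraries held between 4426445 and 9856338 estimated reads. Values are the authors' normalized counts, which set a transcript against the rest of its library; total RNA per cell was not measured, and in these bulk samples fewer cells of a type and less RNA per cell cannot be told apart. The RBMS3 transcript itself stood at 272 ± 79.3 in RBMS3 cells and 97.7 ± 20.5 in LacZ cells at 0 min (SD, n = 3 each), a log2 difference of 1.45 ± 0.39 (adjusted p = 0.00608). Here and below, the error of a log2 difference is the SE of the limma fit on log2 of the normalized count + 1, and adjusted p-values are limma's after Benjamini-Hochberg adjustment over all tested genes. The lines also differed in the markers of the labelled cell type: the summed level of 8 mammary epithelial markers was 3677 to 13910 in RBMS3 libraries, against 15050 to 21190 in LacZ libraries, and that of 8 mesenchymal markers was 40310 to 54090 in RBMS3 libraries, against 8195 to 11160 in LacZ libraries. At 0 min 5 of the 8 epithelial markers were lower in RBMS3 cells, 1 was higher and 2 did not pass. EPCAM, CDH1 and TP63, named after their values were seen, averaged 0.707, 7.9 and 3.28 in RBMS3 cells at 0 min. In LacZ cells at 0 min they averaged 1716, 318.5 and 246.6, so the sums do not show the differences of single markers. The RBMS3 libraries at 0 min stood apart from the later ones of the line: KRT14, a basal keratin, lay between 5902 and 6168 at 0 min and between 722.8 and 1198 afterwards, against 2133 to 3557 in all LacZ libraries, and the epithelial sum lay between 13600 and 13910 at 0 min and between 3677 and 5694 afterwards. Their mesenchymal sum was higher at 0 min as well, at 51050 to 54090, against 40310 to 48450 afterwards. Single markers went both ways: FN1 lay between 29280 and 31860 at 0 min and between 13870 and 18780 afterwards, VIM between 14270 and 14590 and then between 17920 and 21070. EPCAM, CDH1 and TP63 stayed at 13.6 or below in the later RBMS3 libraries. In LacZ cells at 0 min replicate 2 stood apart, with a lowest correlation across genes of 0.909 to another library of its group. The 8 leukocyte markers summed to 16.1 to 56.0 in RBMS3 libraries and 27.2 to 87.6 in LacZ libraries, with CD3E and NKG7 among those at 0 in all libraries, and the 6 endothelial markers to at most 15.6 in RBMS3 libraries and 8.79 in LacZ libraries, with CDH5 and CLDN5 at 0 in all libraries. What these marker differences contribute to the results below was not tested.

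Before transcription was blocked, 8 of the 10 genes were lower in RBMS3 cells than in LacZ cells, and none was higher (adjusted p under 0.05). Of all tested genes 18.9% were lower and 18.6% higher by the same rule. The 8 were NFKBIE, TNFAIP3, NFKB1, NFKB2, REL, RELB, BIRC3 and ICAM1; NFKBIA and RELA did not pass. The median log2 difference of the members was -1.34, against 0.01 for all tested genes. After 90 min 7 members were lower (15.0% of all tested genes), after 180 min 7 (16.8%) and after 360 min 9 (17.7%), again with none higher. NFKB2, REL, RELB, BIRC3 and ICAM1 were lower at each of the 4 times, and RELA at none. In 4 of the 10 genes, NFKB2, RELB, ICAM1 and NFKBIE, all 12 RBMS3 libraries lay below all 12 LacZ libraries, which held for 5.99% of the tested genes. The count at 0 min was 5 without RBMS3 replicate 2, where NFKBIE, REL and BIRC3 were lost, and the count at 90 min was 4 without RBMS3 replicate 2, where NFKBIA, NFKBIE and BIRC3 were lost.

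**Figure D1:**
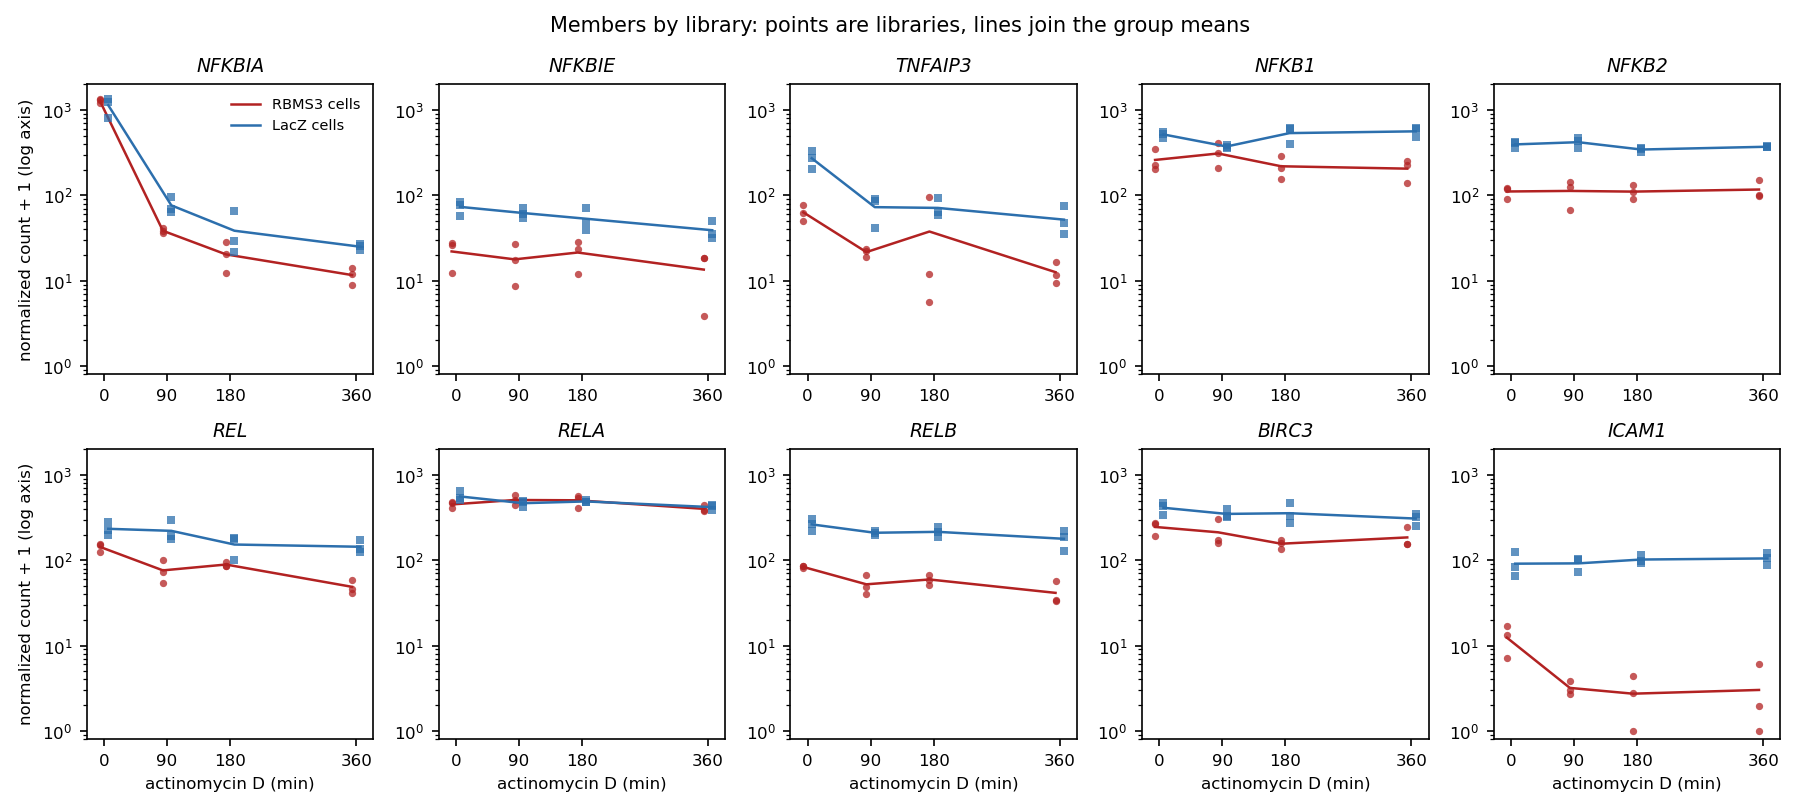
Normalized count + 1 of each member (log axis) against minutes of actinomycin D, with 1 point per library and lines through the group means of RBMS3 and LacZ cells (n = 3 libraries each). NFKB2, RELB, NFKBIE and ICAM1 are lower in all RBMS3 libraries at every time, RELA overlaps at 90, 180 and 360 min, and NFKBIA overlaps between the lines at 0 min and drops in both.

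NFKBIA encodes IkappaBα, the inhibitor that is made anew within minutes of NF-kappaB activation. The 3 RBMS3 libraries of each time held 1200, 1315 and 1344 at 0 min, 35.0, 40.3 and 37.2 at 90 min, 11.5, 27.2 and 19.4 at 180 min, then 13.1, 7.82 and 11.0 at 360 min. LacZ libraries held 1353, 816 and 1254 at 0 min, 94.4, 63.5 and 68.7 at 90 min, 27.9, 64.2 and 20.6 at 180 min, then 21.8, 25.6 and 24.6 at 360 min. The lines overlapped at 0 and 180 min, and at 90 and 360 min all RBMS3 libraries were below all LacZ libraries. The log2 difference of RBMS3 against LacZ cells at 0 min, 0.20 ± 0.34 (adjusted p = 0.685), did not pass, and its direction turned without LacZ replicate 2 (-0.02). RBMS3 cells were lower at 90 min, with a difference of -0.97 ± 0.34 (adjusted p = 0.0368), and at 360 min, with -1.13 ± 0.34 (adjusted p = 0.0138), whereas the difference at 180 min of -0.84 ± 0.34 (adjusted p = 0.0671) did not pass. The call at 90 min was lost without any 1 of RBMS3 replicates 1, 2 and 3 or LacZ replicates 1 and 3 (adjusted p 0.0616 to 0.142), and that at 360 min without RBMS3 replicate 2 (adjusted p 0.0673). At 180 min the difference passed without RBMS3 replicate 2 (adjusted p 0.0276) or without LacZ replicate 3 (adjusted p 0.0162). Without a filter on low values the call at 90 min ended (adjusted p 0.0574). That at 360 min ended when the fit held only the groups compared (adjusted p 0.0668). Under scaling to ribosomal protein genes the difference at 180 min passed (adjusted p 0.0374), and that at 0 min was -0.13.

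NFKBIE encodes IkappaBε, a slower inhibitor that also follows NF-kappaB activity. RBMS3 libraries held 25.6, 11.2 and 26.4 at 0 min, 16.7, 7.77 and 25.9 at 90 min, 27.7, 10.9 and 22.6 at 180 min, then 17.4, 17.3 and 2.83 at 360 min. The LacZ libraries had 76.7, 83.5 and 57.1 at 0 min, 59.5, 53.1 and 71.1 at 90 min, 48.1, 70.2 and 38.6 at 180 min, then 34.7, 30.9 and 48.7 at 360 min. Every RBMS3 library lay below every LacZ library. NFKBIE was lower in RBMS3 cells, with a log2 difference of -1.81 ± 0.54 (adjusted p = 0.0115) at 0 min, -1.94 ± 0.54 (adjusted p = 0.00898) at 90 min and -1.82 ± 0.54 (adjusted p = 0.0117) at 360 min, and at 180 min the difference was -1.37 ± 0.54 (adjusted p = 0.0569). Leaving out the library that held the lowest value of its group lifted the adjusted p to 0.0686 at 0 min and 0.0624 at 90 min (RBMS3 replicate 2 in each) and to 0.101 at 360 min (RBMS3 replicate 3). A fit of only the groups compared gave an adjusted p of 0.0682 at 360 min. At 180 min the difference passed with a pseudocount of 5 (adjusted p 0.0299) and under ribosomal scaling (0.0346). The RBMS3 levels rest on few summed reads: replicate 3 at 180 min, at 22.6, had 6 estimated reads. Reads on transcripts that did not match the gene annotation used here are not in this sum.

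TNFAIP3 encodes A20, a ubiquitin-editing enzyme that shuts off signalling from the tumour necrosis factor receptor. The 3 RBMS3 libraries of each time held 49.3, 76.2 and 61.6 at 0 min, 21.4, 22.6 and 18.0 at 90 min, 94.7, 4.69 and 10.9 at 180 min, then 15.7, 10.6 and 8.52 at 360 min. LacZ libraries held 334, 206 and 277 at 0 min, 88.7, 86.1 and 40.9 at 90 min, 91.1, 57.3 and 62.8 at 180 min, then 73.2, 46.0 and 34.0 at 360 min. At 0, 90 and 360 min the RBMS3 libraries lay below the LacZ libraries; at 180 min replicate 1 of the RBMS3 cells overlapped them. That replicate's 94.7 normalized counts stood against 17 summed estimated reads. This factor was 7.26 times that of the typical gene of the library. Whether it reflects reads on transcripts outside the sum was not tested. The log2 difference was -2.10 ± 0.64 (adjusted p = 0.0132) at 0 min, -1.91 ± 0.64 (adjusted p = 0.0258) at 180 min and -2.02 ± 0.64 (adjusted p = 0.0179) at 360 min, all lower in RBMS3 cells, and -1.68 ± 0.64 (adjusted p = 0.0537) at 90 min. That at 180 min was lost without RBMS3 replicate 2 (adjusted p 0.198), RBMS3 replicate 3 (0.108) or LacZ replicate 1 (0.0885), and that at 360 min without RBMS3 replicate 3 (0.0624) or LacZ replicate 1 (0.0775). The call at 180 min also ended with only the groups compared (adjusted p 0.171). At 90 min it passed without LacZ replicate 3 (adjusted p 0.0409), with a pseudocount of 5, under ribosomal scaling, with the replicate block and with only the groups compared (0.0128 to 0.0423).

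**Figure D2:**
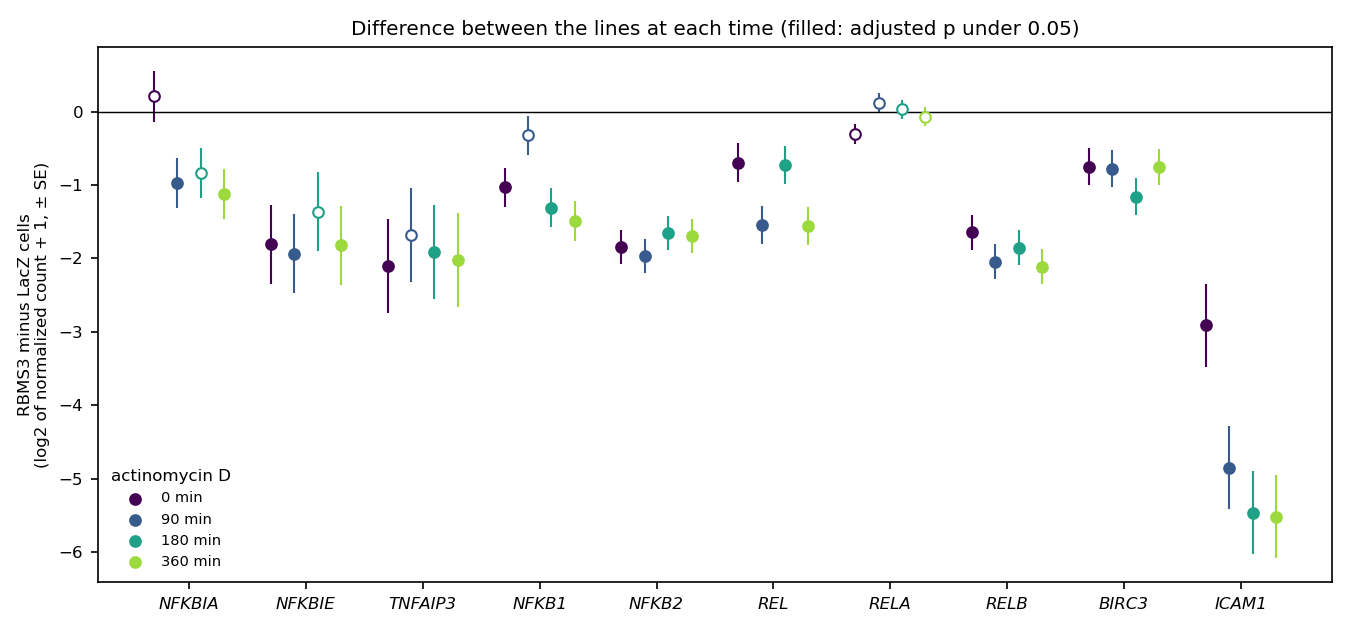
Log2 difference of RBMS3 against LacZ cells (log2 of the normalized count + 1, point and SE from the limma fit) for each member at 0, 90, 180 and 360 min, with filled points for an adjusted p under 0.05. ICAM1 lies lowest at each time, from -2.91 at 0 min to -5.51 at 360 min, while the 4 points of RELA lie between -0.31 and 0.12 and none is filled.

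RELA encodes p65, the main activating subunit of the canonical arm. RBMS3 libraries held 409.9, 467 and 475 at 0 min, 444, 578 and 503 at 90 min, 535, 565 and 412 at 180 min, then 373, 385 and 441 at 360 min. The LacZ libraries had 504, 642 and 533 at 0 min, 493, 487 and 418 at 90 min, 481, 482 and 504 at 180 min, then 439, 387 and 431 at 360 min. The libraries of the 2 lines overlapped after 90, 180 and 360 min, and at 0 min all RBMS3 libraries were lower. No difference passed: it was -0.31 ± 0.13 (adjusted p = 0.0735) at 0 min, 0.12 ± 0.13 (adjusted p = 0.545) at 90 min, 0.03 ± 0.13 (adjusted p = 0.89) at 180 min and -0.07 ± 0.13 (adjusted p = 0.733) at 360 min. The value at 0 min passed without LacZ replicate 1 (adjusted p 0.0484) and when libraries were scaled to ribosomal protein genes (-0.64, adjusted p 0.000841).

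REL encodes c-Rel, a canonical subunit best known from lymphocytes. The 3 RBMS3 libraries of each time held 149.5, 154 and 124 at 0 min, 72.6, 53.3 and 99.5 at 90 min, 85.4, 84.0 and 95.0 at 180 min, then 44.8, 57.8 and 40.9 at 360 min. LacZ libraries held 227, 277 and 195 at 0 min, 191, 292 and 178 at 90 min, 99.2, 178 and 179 at 180 min, then 134, 170.3 and 125 at 360 min. At each time the highest RBMS3 library was below the lowest LacZ library. REL was lower in RBMS3 cells, with a log2 difference of -0.69 ± 0.26 (adjusted p = 0.0405) at 0 min, -1.55 ± 0.26 (adjusted p = 9.3e-05) at 90 min, -0.73 ± 0.26 (adjusted p = 0.0349) at 180 min and -1.56 ± 0.26 (adjusted p = 7.09e-05) at 360 min. The calls at 0 and 180 min were lost when 1 library was left out: at 0 min without any 1 of RBMS3 replicates 1, 2 and 3 or LacZ replicates 1 and 2 (adjusted p 0.0587 to 0.144), and at 180 min without any 1 of RBMS3 replicates 1, 2 and 3 or LacZ replicates 2 and 3 (adjusted p 0.0539 to 0.141). Both also ended without a filter (adjusted p 0.0583 and 0.053), and that at 180 min with only the groups compared (0.0811).

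RELB encodes the activating subunit of the non-canonical arm. RBMS3 libraries held 79.4, 83.9 and 84.2 at 0 min, 66.9, 39.0 and 47.8 at 90 min, 66.8, 57.9 and 50.9 at 180 min, then 32.2, 33.5 and 55.6 at 360 min. The LacZ libraries had 219, 300.0 and 269 at 0 min, 218, 211 and 199 at 90 min, 244, 214 and 186 at 180 min, then 187, 217 and 128 at 360 min. No RBMS3 library reached the lowest LacZ library at any time. RELB was lower in RBMS3 cells, with a log2 difference of -1.65 ± 0.24 (adjusted p = 1.26e-05) at 0 min, -2.04 ± 0.24 (adjusted p = 9.96e-07) at 90 min, -1.85 ± 0.24 (adjusted p = 3.34e-06) at 180 min and -2.12 ± 0.24 (adjusted p = 5.53e-07) at 360 min. On the linear scale its mean in RBMS3 cells was 31.4% of that in LacZ cells at 0 min and 22.8% at 360 min.

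NFKB2 encodes p100, which restrains RELB until it is processed to p52. The 3 RBMS3 libraries of each time held 89.8, 122 and 119 at 0 min, 144, 125 and 66.6 at 90 min, 90.1, 109.8 and 129.8 at 180 min, then 98.8, 100.2 and 150.0 at 360 min. LacZ libraries held 426, 407 and 355 at 0 min, 431, 468 and 362 at 90 min, 319.5, 361 and 353 at 180 min, then 377, 367 and 371 at 360 min. The highest RBMS3 value was below the lowest LacZ value at every time. NFKB2 was lower in RBMS3 cells, with a log2 difference of -1.84 ± 0.23 (adjusted p = 1.73e-06) at 0 min, -1.96 ± 0.23 (adjusted p = 9.51e-07) at 90 min, -1.65 ± 0.23 (adjusted p = 8.51e-06) at 180 min and -1.70 ± 0.23 (adjusted p = 5.83e-06) at 360 min. Its mean in RBMS3 cells was 26.6% to 31.9% of that in LacZ cells over the 4 times.

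NFKB1 encodes p105, the precursor of p50. RBMS3 libraries held 204, 348 and 227 at 0 min, 314, 407 and 207 at 90 min, 211, 155 and 290.1 at 180 min, then 251, 139 and 226 at 360 min. The LacZ libraries had 470.2, 557 and 528 at 0 min, 362, 368 and 392 at 90 min, 616, 398 and 598 at 180 min, then 592, 488 and 611 at 360 min. The lines overlapped only at 90 min, where 1 RBMS3 library was above all LacZ libraries. NFKB1 was lower in RBMS3 cells, with a log2 difference of -1.03 ± 0.27 (adjusted p = 0.00436) at 0 min, -1.31 ± 0.27 (adjusted p = 0.000646) at 180 min and -1.49 ± 0.27 (adjusted p = 0.000164) at 360 min, and at 90 min the difference of -0.32 ± 0.27 (adjusted p = 0.403) did not pass. The normalized counts of NFKB1 and NFKB2 were, at the median, 8.17 and 22.7 times what their summed estimated reads would give. Most transcripts of these genes did not match the gene annotation used here, so reads on them are missing from the sums. The read support of these genes was therefore not used.

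BIRC3 encodes cIAP2, a ubiquitin ligase that protects cells from death on tumour necrosis factor and is itself switched on by NF-kappaB. The 3 RBMS3 libraries of each time held 275, 194 and 267 at 0 min, 170.0, 158 and 308 at 90 min, 160.3, 169.7 and 136 at 180 min, then 156, 153 and 245 at 360 min. LacZ libraries held 337, 469 and 430.0 at 0 min, 332, 317 and 397 at 90 min, 269, 331 and 466 at 180 min, then 323, 250.2 and 349 at 360 min. In each group of 3 the RBMS3 libraries lay below the LacZ libraries of the same time. BIRC3 was lower in RBMS3 cells, with a log2 difference of -0.75 ± 0.25 (adjusted p = 0.0231) at 0 min, -0.78 ± 0.25 (adjusted p = 0.0231) at 90 min, -1.16 ± 0.25 (adjusted p = 0.00116) at 180 min and -0.76 ± 0.25 (adjusted p = 0.0234) at 360 min. Leaving out 1 library ended the call at 0 min (RBMS3 replicate 2, LacZ replicate 2 or 3; adjusted p 0.0611 to 0.112), at 90 min (RBMS3 replicate 1 or 2, LacZ replicate 3; 0.0898 to 0.122) and at 360 min (RBMS3 replicate 1 or 2, LacZ replicate 1 or 3; 0.0684 to 0.0961), and at 180 min in no case. With only the groups compared the adjusted p at 90 min was 0.0544. The factor from estimated reads to the normalized count of BIRC3 ranged from 0.843 to 2.76 over the 12 libraries with a usable file, and what it contributes was not tested.

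ICAM1 encodes an adhesion receptor for leukocytes that NF-kappaB induces on epithelium and endothelium. RBMS3 libraries held 15.9, 12.1 and 6.10 at 0 min, 2.01, 1.68 and 2.87 at 90 min, 0, 3.38 and 1.80 at 180 min, then 0.940, 0 and 5.11 at 360 min. The LacZ libraries had 81.3, 126 and 63.6 at 0 min, 101, 99.8 and 72.0 at 90 min, 97.1, 90.9 and 115 at 180 min, then 104, 121 and 87.0 at 360 min. Its highest RBMS3 value was 15.9 and its lowest LacZ value 63.6, and its log2 difference was the lowest of the 10 genes at each time. ICAM1 was lower in RBMS3 cells, with a log2 difference of -2.91 ± 0.57 (adjusted p = 0.000344) at 0 min, -4.85 ± 0.57 (adjusted p = 9.94e-07) at 90 min, -5.46 ± 0.57 (adjusted p = 1.73e-07) at 180 min and -5.51 ± 0.57 (adjusted p = 1.5e-07) at 360 min. Its mean in RBMS3 cells was 12.6% of that in LacZ cells at 0 min, and 2.40%, 1.71% and 1.94% at 90, 180 and 360 min. These low levels correspond to a handful of reads in a library, with 2 RBMS3 libraries at 0.

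The next question was how the transcripts changed once transcription was blocked. After 90 min 3 members had fallen against 0 min in RBMS3 cells, NFKBIA, REL and ICAM1 (6.52% of all tested genes were lower), and 1 in LacZ cells, NFKBIA (2.74%). After 180 min there were 3 in RBMS3 cells, NFKBIA, TNFAIP3 and ICAM1 (12.4%), and 2 in LacZ cells, NFKBIA and TNFAIP3 (6.87%). After 360 min there were 5 in RBMS3 cells, NFKBIA, TNFAIP3, REL, RELB and ICAM1 (18.6%), and 4 in LacZ cells, NFKBIA, TNFAIP3, REL and RELA (13.6%). No member rose against 0 min in either line. Without replicate 1 or 2 at 0 min or replicate 2 at 90 min, 1 member was called at 90 min in RBMS3 cells; in LacZ cells 1 was called at 180 min without any 1 of the 6 libraries, and 2 at 360 min without replicate 2 at 0 min. Scaled to ribosomal protein genes, libraries gave 8 lower members at 360 min in each line. Under this scaling 3794 of the 12096 tested genes were lower at 360 min in RBMS3 cells and 4860 in LacZ cells.

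**Figure D3:**
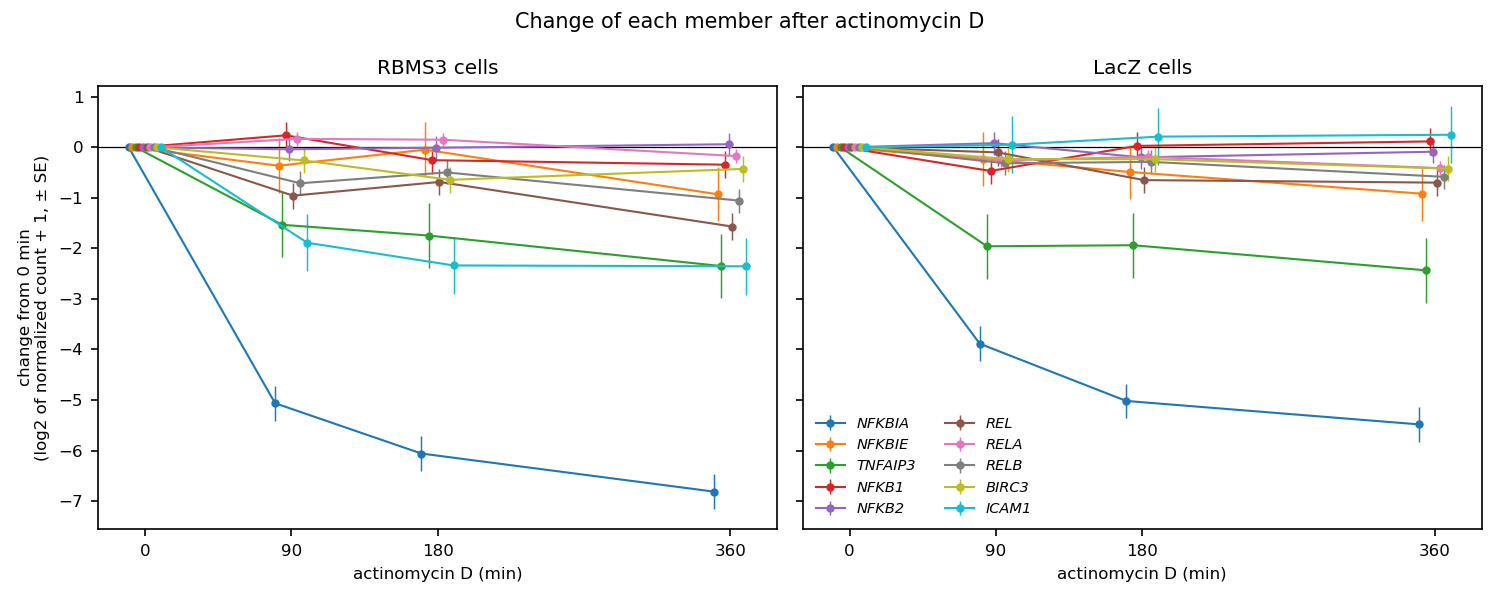
Change of each member from 0 min (log2 of the normalized count + 1, ± SE from the limma fit) against minutes of actinomycin D, RBMS3 cells on the left and LacZ cells on the right. NFKBIA drops furthest in both lines, to -6.81 in RBMS3 cells and -5.48 in LacZ cells at 360 min, and ICAM1 drops in RBMS3 cells and stays near 0 in LacZ cells.

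NFKBIA had the largest drop of the members in both lines. At 90 min its mean level was 2.92% of that at 0 min in RBMS3 cells and 6.62% in LacZ cells, and at 360 min RBMS3 cells kept 0.828% and LacZ cells 2.10%. The RBMS3 level at 360 min rests on 13, 7 and 10 estimated reads of NFKBIA. Its log2 difference from 0 min in RBMS3 cells was -5.06 ± 0.34 (adjusted p = 2.19e-09) at 90 min, -6.06 ± 0.34 (adjusted p = 6.28e-11) at 180 min and -6.81 ± 0.34 (adjusted p = 6.66e-12) at 360 min. In LacZ cells it was -3.89 ± 0.34 (adjusted p = 2.8e-07) at 90 min, -5.02 ± 0.34 (adjusted p = 2.29e-09) at 180 min and -5.48 ± 0.34 (adjusted p = 2.78e-10) at 360 min. It also fell between 90 and 360 min, with a log2 difference of -1.75 ± 0.34 (adjusted p = 0.00115) in RBMS3 cells and -1.59 ± 0.34 (adjusted p = 0.00464) in LacZ cells. In that interval 8.35% of tested genes were lower in RBMS3 cells and 5.12% in LacZ cells, and no other member was called, except under alternatives. Ribosomal scaling gave 5 lower members in RBMS3 cells and 3 in LacZ cells. Under it 2944 of the 12096 tested genes were lower in RBMS3 cells and 1731 in LacZ cells. There were 2 lower members in RBMS3 cells by edgeR or DESeq2 on estimated reads or without replicate 3 at 90 min. With only the groups compared, 1 member was lower and 1 higher in LacZ cells. This later interval does not use the RBMS3 libraries at 0 min, which stood apart in keratins and in mesenchymal markers. With the estimated reads of the RBMS3 libraries the change from 90 to 360 min was -2.02 (adjusted p = 0.000782 by edgeR and 4.22e-07 by DESeq2).

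TNFAIP3 was called lower than at 0 min in both lines from 180 min on. Its mean level at 90 min was already 33.1% of that at 0 min in RBMS3 cells and 26.4% in LacZ cells. The log2 differences at 90 min did not pass, with -1.53 ± 0.64 (adjusted p = 0.12) in RBMS3 cells and -1.96 ± 0.64 (adjusted p = 0.0723) in LacZ cells. The mean level of TNFAIP3 at 180 min was 58.9% of that at 0 min in RBMS3 cells and 25.9% in LacZ cells. The 58.9% rests on RBMS3 replicate 1, at 94.7, beside 4.69 and 10.9 in replicates 2 and 3. At 360 min the level of TNFAIP3 was 18.6% of that at 0 min in RBMS3 cells and 18.8% in LacZ cells. The log2 difference from 0 min was -2.35 ± 0.64 (adjusted p = 0.00639) in RBMS3 cells and -2.43 ± 0.64 (adjusted p = 0.00685) in LacZ cells at 360 min. At 180 min RBMS3 cells gave -1.74 ± 0.64 (adjusted p = 0.04997) and LacZ cells -1.94 ± 0.64 (adjusted p = 0.0467). The calls at 180 min depended on single libraries: in RBMS3 cells each of replicates 1, 2 and 3 at 0 min and 2 and 3 at 180 min ended it when left out (adjusted p 0.0726 to 0.315), and in LacZ cells each of the 6 libraries did (adjusted p 0.0587 to 0.123). That in RBMS3 cells was also lost with a pseudocount of 5 (adjusted p 0.0603), without a filter (0.0766) and with only the groups compared (0.252), and that in LacZ cells without a filter (0.0713).

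Among the subunits, REL fell in RBMS3 cells, with a log2 difference from 0 min of -0.96 ± 0.26 (adjusted p = 0.016) at 90 min and -1.57 ± 0.26 (adjusted p = 6.99e-05) at 360 min, and in LacZ cells, with -0.70 ± 0.26 (adjusted p = 0.0494) at 360 min. At 360 min RELB had fallen in RBMS3 cells, with -1.05 ± 0.24 (adjusted p = 0.00149), and RELA in LacZ cells, with -0.41 ± 0.13 (adjusted p = 0.0233). The levels of NFKB2 at 360 min were 105.5% of those at 0 min in RBMS3 cells and 93.9% in LacZ cells, and those of NFKB1 79.0% in RBMS3 cells and 108.8% in LacZ cells; none of these passed. Several of these calls ended when 1 library was left out. REL at 90 min in RBMS3 cells was lost without replicate 1 or 2 at 0 min or replicate 2 at 90 min (adjusted p 0.0537 to 0.0962). REL at 360 min in LacZ cells was lost without replicate 1 or 2 at 0 min or replicate 1 or 3 at 360 min (adjusted p 0.0853 to 0.169). RELA at 360 min in LacZ cells was lost without replicate 2 at 0 min (adjusted p 0.108) or replicate 2 at 360 min (0.0913). With only the groups compared these 3 calls ended as well (adjusted p 0.0637 for REL in RBMS3 cells, 0.0842 for REL and 0.108 for RELA in LacZ cells), and REL in LacZ cells ended without a filter (0.0738).

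Of the 2 targets, ICAM1 fell in RBMS3 cells, with a log2 difference from 0 min of -1.89 ± 0.57 (adjusted p = 0.0288) at 90 min, -2.34 ± 0.57 (adjusted p = 0.00414) at 180 min and -2.35 ± 0.57 (adjusted p = 0.0025) at 360 min. In RBMS3 cells its mean level was 19.2%, 15.1% and 17.7% of that at 0 min at the 3 later times, and in LacZ cells 100.9%, 112.0% and 115.4%. The call at 90 min was lost without RBMS3 replicate 1 or 2 at 0 min or replicate 1 or 2 at 90 min (adjusted p 0.0757 to 0.114), and without a filter (0.0552). Each of these falls sets later RBMS3 libraries against those at 0 min, where the epithelial and the mesenchymal marker sums were both higher. What that difference contributes was not tested. BIRC3 was called in neither line: its mean level at 360 min was 75.2% of that at 0 min in RBMS3 cells and 74.7% in LacZ cells.

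Whether the change after actinomycin D differed between the lines was tested as a difference of changes. The changes from 0 min use the RBMS3 libraries at 0 min, which stood apart in keratins and in mesenchymal markers. What that contributes was not tested. For the change from 0 to 90 min no member passed, against 5.23% of all tested genes in either direction. The unadjusted limma p was under 0.05 for ICAM1, NFKBIA and REL, with negative values, and for RELA, with a positive value of 0.43. For the change from 0 to 360 min no member passed, against 7.77% of all tested genes, and ICAM1, NFKBIA and REL had an unadjusted p under 0.05. For the change from 90 to 360 min no member passed, against 0.00827% of all tested genes, and NFKB1 had an unadjusted p under 0.05. The percentages are for adjusted p. How many of all tested genes had an unadjusted p under 0.05 was not counted, so these members cannot be set against a background. For NFKBIA the change in RBMS3 cells minus that in LacZ cells was -1.18 ± 0.48 (adjusted p = 0.188) on the log2 scale up to 90 min and -1.33 ± 0.48 (adjusted p = 0.103) up to 360 min. With only the groups compared, the value up to 360 min passed (adjusted p 0.0473). For TNFAIP3 the same values were 0.42 ± 0.90 (adjusted p = 0.855) and 0.08 ± 0.90 (adjusted p = 0.971). For ICAM1 they were -1.94 ± 0.80 (adjusted p = 0.19) and -2.60 ± 0.80 (adjusted p = 0.0503). The last value lay at the threshold: it passed without RBMS3 replicate 3 at 0 min (adjusted p 0.0387), without RBMS3 replicate 3 at 360 min (0.00762) and without LacZ replicate 2 at 0 min (0.0399), and with a pseudocount of 5 (0.0474).

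The genes whose pattern over the 8 groups was most like that of NFKBIA and of NFKB2 were found by the root mean square distance of centred log2 group means, over 9101 genes with a mean of at least 50. For NFKBIA they were JUNB, an AP-1 subunit, at a distance of 0.41, EGR1, an immediate early transcription factor, at 0.43, and the histone genes H2AC14 at 0.49, H1-4 at 0.49 and H2AC13 at 0.51. JUNB stood at 984.7 in RBMS3 cells and 568.9 in LacZ cells at 0 min, and at 29.6 in RBMS3 cells and 96.0 in LacZ cells at 90 min. For NFKB2 the nearest were APOL6 at 0.12, ABLIM1 at 0.14, WWP1 at 0.14, SH3BP1 at 0.18 and ESRP2, an epithelial splicing factor, at 0.18. Of these APOL6 had a mean of 56.8 in RBMS3 cells and 200.1 in LacZ cells at 0 min, and ESRP2 of 50.1 in RBMS3 cells and 168.2 in LacZ cells.

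Other genes of the pathway were counted at 0 min from lists of receptors, adaptors and kinases, of other inhibitors, of other targets and of mRNA decay factors. Among 40 other target genes, 30 were tested: 17 were lower in RBMS3 cells, 1 was higher and 12 did not pass, with a median log2 difference of -1.32, against 0.01 for all genes. Of all tested genes 18.9% were lower and 18.6% higher. Named by size among them were 3 secreted proteins. IL1A, an alarmin cytokine, was listed at 0 in each RBMS3 library and at 561, 323 and 424 in LacZ libraries. IL1B, its inducible relative, was at 1.07, 4.71 and 0 in RBMS3 libraries and at 534, 399.7 and 539 in LacZ libraries, a log2 difference of -7.74 ± 0.56 (adjusted p = 6.43e-10). MMP9, a matrix protease, was at 5.37, 0 and 2.05 in RBMS3 libraries and at 262, 184 and 240.2 in LacZ libraries, a log2 difference of -6.40 ± 0.67 (adjusted p = 1.72e-07). The 1 target that was higher in RBMS3 cells was PTX3, a pattern recognition protein, at a log2 difference of 2.65 ± 0.21 (SE; limma adjusted p = 2.99e-09), a gene named after its value was seen.

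Among 34 receptors, adaptors and kinases, 31 were tested, of which 3 were higher and 8 lower in RBMS3 cells, with a median log2 difference of -0.04 and the same 18.6% higher and 18.9% lower among all genes. IL1R1, the receptor of both cytokines above, was higher, at 239 ± 5.56 in RBMS3 cells and 55.9 ± 29.9 in LacZ cells, a log2 difference of 2.23 ± 0.32 (adjusted p = 1.25e-05). CD40, a receptor of the tumour necrosis factor family, was higher, at 2.06 ± 0.61 (adjusted p = 0.0107), a call that ended without LacZ replicate 2 (0.97, adjusted p 0.0753) or with only the groups compared (0.135). TRAF2, an adaptor of that family's receptors, was lower, at -1.58 ± 0.33 (adjusted p = 0.000626).

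Of 23 other inhibitors 19 were tested, with 3 higher and 3 lower in RBMS3 cells (all genes, 18.6% and 18.9%) and a median of -0.29. TNIP1, a partner of A20, was lower, at -1.34 ± 0.18 (adjusted p = 4.14e-06). ITCH, a ubiquitin ligase, was lower, at -1.90 ± 0.72 (adjusted p = 0.0424), a call that ended without any 1 of RBMS3 replicates 1, 2 and 3 or LacZ replicates 1 and 3 (adjusted p 0.0518 to 0.167), without a filter (0.0621) or with robust fitting (0.0531). PIAS1, a SUMO ligase, was higher, at 1.41 ± 0.45 (adjusted p = 0.0175), a call that ended without RBMS3 replicate 1 (adjusted p 0.0535) or LacZ replicate 2 (0.75, adjusted p 0.149), under ribosomal scaling (0.0573) or with only the groups compared (0.0894). Of 11 decay factors 10 were tested, with 1 higher and 3 lower (all genes, 18.6% and 18.9%) and a median of -0.22. RC3H1, which encodes Roquin, a protein that promotes decay of inflammatory mRNAs, was lower, at -0.94 ± 0.24 (adjusted p = 0.00386). Its RBMS3 libraries held 266, 246 and 233, against 886, 390.5 and 311 in LacZ libraries, of which replicate 1 stood highest. Leaving out 1 library gave -1.24 to -0.49. The call ended with only the groups compared (adjusted p 0.106). KHSRP, which binds AU-rich RNA, was lower, at -0.31 ± 0.06 (adjusted p = 0.000738), a call that ended with only the groups compared (adjusted p 0.0533). ZFP36L2, another AU-rich binder, was higher, at 0.92 ± 0.35 (adjusted p = 0.0472), and without LacZ replicate 2 the difference was 0.18 (adjusted p 0.383). The call also ended without any 1 of the RBMS3 replicates (adjusted p 0.0742 to 0.119), without a filter, under ribosomal scaling and with only the groups compared (0.0687 to 0.271).

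**Figure D4:**
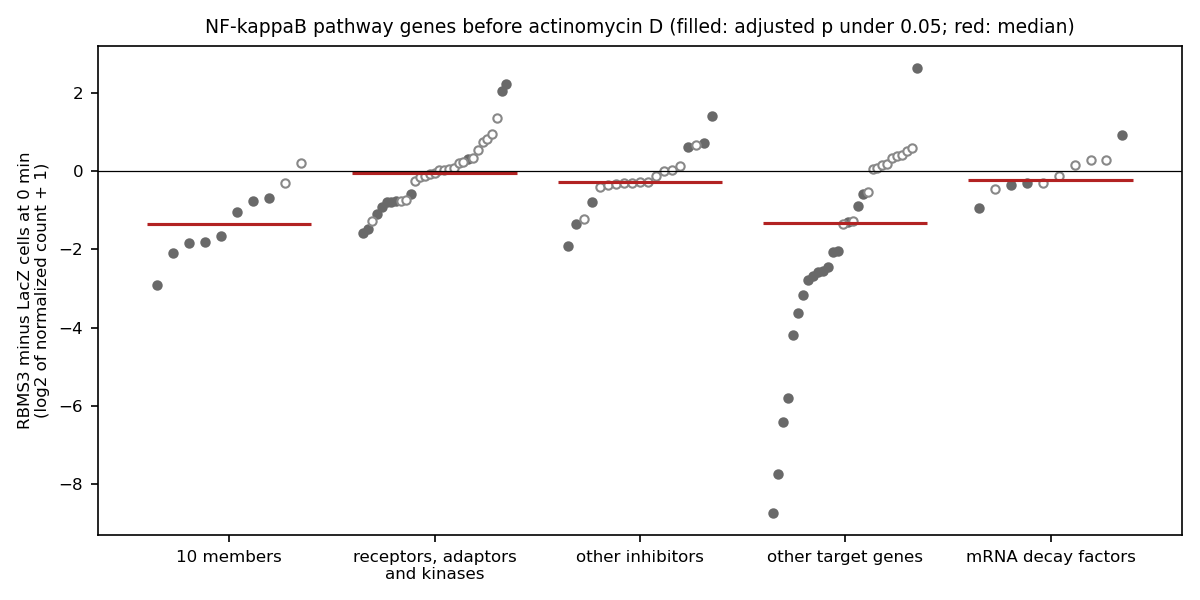
Log2 difference of RBMS3 against LacZ cells at 0 min (log2 of the normalized count + 1) for each tested gene of the members and of 4 further lists, with filled points for an adjusted p under 0.05 and a red line at the median. The members and the other target genes have medians of -1.34 and -1.32, and the other 3 lists have medians between -0.29 and -0.04.

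The letters ATTTA, 1 form of AU-rich sequence, were counted in the 3′ UTR of 1 GENCODE 29 transcript for each member. NFKBIA held 3 in 502 bases, TNFAIP3 5 in 1993 bases, REL 25 in 9075 bases, BIRC3 12 in 2301 bases, NFKB1 3 in 708 bases, ICAM1 2 in 1328 bases and NFKB2 1 in 148 bases. NFKBIE, RELA and RELB held none, in 1053, 782 and 404 bases. In the first 400 bases BIRC3 held 4, a count that 2.70% of 13393 3′ UTRs of at least that length reach, and NFKBIA and REL held 2 each, which 20.1% reach. NFKB1 held 1 there, which 45.9% reach, and TNFAIP3, NFKBIE, RELA, RELB and ICAM1 held none. The 3′ UTR of NFKB2 is shorter than this window. The counts over whole 3′ UTRs have no such background. Whether RBMS3 binds at these letters was not tested, nor how the counts relate to the changes after actinomycin D.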

How the data were processed

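Polyadenylated RNA of 24 HMLE libraries was measured with QuantSeq, in 8 groups of 3 by line and time, which titles and treatment labels define. The submitters' processing notes name Salmon 1.4.0, Trim Galore 0.6.6 and DESeq2 1.32.0. No genome build is named in the sources used here. The table of normalized signal that the authors deposited, 1 value per gene and library, is called the normalized count; it is the source of all levels and of the main tests. The authors also deposited an estimated count for each transcript and library, per the file headers. The record that attaches these transcript files to samples and the files' own names disagreed for 12 of the 24 libraries, among them RBMS3 cells at 0 min; each file correlated best across 11824 genes with the table column of its own name (r at least 0.841, next best at most 0.742). Table columns were matched to samples by title. Estimated counts were summed over genes, rounded to whole numbers and used for depth, for the reads behind single values and for a repeat of 1 comparison, in the 12 libraries whose file was not disputed. Only transcripts that matched the gene annotation used here entered these sums. They were 88.4% of the transcripts and held 95.1% to 95.7% of the reads of a library. The factor from the summed reads to the normalized count varied between the 12 libraries by over 1.5 times in 40.4% of 10368 genes. Whether this variation lies in the normalized counts or in reads on unmatched transcripts was not tested.

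At most 50.7% of the low values of a library lay within 0.02 of whole multiples of its best unit, and the table was therefore not given to a count test. The tests used limma 3.58.1 under R 4.3.3, with a trend and without robust fitting, in 1 model of 8 group means for log2(normalized count + 1), a scale that understates changes of low genes. Benjamini-Hochberg adjustment covered the 12096 genes with a mean of at least 10, with 0.05 as the threshold. RBMS3 cells were set against LacZ cells at each time, later against earlier times within a line, and the difference between these changes. Alternatives were a pseudocount of 5, no filter, scaling to the median gene or to ribosomal protein genes, the replicate number as a block, robust fitting, only the groups compared, leaving out each library, and edgeR 4.0.16 and DESeq2 1.42.0 on estimated counts. The fit was tested on simulated data.

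All members are named. Of each other list up to 3 genes are named, those with the largest difference at 0 min that passed, if the higher line averaged 50 or more and the lines did not overlap; further genes are said to be named after their values were seen. The members and lists were chosen with earlier results of these data known.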

Additional observations from a re-analysis of the deposited data

How the results depend on the processing

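Of the counts of members lower in RBMS3 than in LacZ cells, none moved by over 1.5 times under the alternatives that keep all libraries; leaving out 1 library gave 5 to 8 at 0 min and 4 to 7 at 90 min. Counts within a line and of differences between the changes moved more. Scaling to ribosomal protein genes gave 5 members for RBMS3 cells at 180 against 0 min, 8 at 360 against 0 min and 5 at 360 against 90 min. Of the 12096 tested genes 1986, 3794 and 2944 were lower in the same order. For LacZ cells it gave 3 members at 90 min, 4 at 180 min and 8 at 360 min against 0 min, and 3 at 360 against 90 min. Of all tested genes 1118, 2605, 4860 and 1731 were lower in that order. For the difference in the change from 0 to 90 min it gave 1 member, with 1131 of all tested genes higher and 167 lower. This scaling shifted the median log2 difference of all genes by up to -0.55 (LacZ cells, 360 against 0 min; RBMS3 against LacZ cells at 0 min, -0.33), and the share of lower among all calls within and between the lines was 40.0% to 98.8% with it and 44.3% to 60.2% as deposited. It also turned NFKBIA at 0 min to -0.126 and RELA at 180 min to -0.0876, RBMS3 against LacZ cells. A pseudocount of 5 gave 2 members for LacZ cells at 90 min and 1 for the difference in the change from 0 to 360 min. Without a filter 1 member was called in LacZ cells at 180 min. With only the groups compared, 2 members were called in LacZ cells at 360 against 0 min, 2 at 360 against 90 min (1 lower and 1 higher), and 1 for the difference in the change from 0 to 360 min. With estimated counts, edgeR and DESeq2 each called 2 members in RBMS3 cells at 360 against 90 min. Leaving out 1 library gave 1 to 3 members for RBMS3 cells at 90 against 0 min, 1 to 2 at 360 against 90 min, 1 to 1 for LacZ cells at 180 against 0 min, 2 to 4 at 360 against 0 min, and 0 to 1 for the difference in the change from 0 to 360 min. In single genes it gave -0.0197 to 0.345 for NFKBIA at 0 min and -0.058 to 0.169 for RELA at 180 min, RBMS3 against LacZ cells, and -0.167 to 0.376 for the difference between the lines in the change of TNFAIP3 from 0 to 360 min. The cause was not tested. Same-numbered libraries shared no large deviation across genes (r -0.111 to 0.116 over 84 pairs). This cannot tell whether equal numbers mark a shared culture or day, since such a pairing could have a small effect. With the replicate block 2 members were called in LacZ cells at 90 against 0 min, and TNFAIP3 at 90 min passed between the lines (adjusted p 0.0338). Low depth limits ICAM1, NFKBIE and TNFAIP3 in RBMS3 cells. It also limits NFKBIA in RBMS3 cells late after actinomycin D, with 14, 15 and 20 estimated reads at 180 min and 13, 7 and 10 at 360 min.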
